A study of Homo sapiens with 18 samples.

Results

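The RNAs described here come from 1 imprinted stretch of human chromosome 14q32, from DLK1 to DIO3. They were taken as all probe sets of the array that are annotated to DLK1, MEG3, RTL1, MEG8 or DIO3, to a small nucleolar RNA of the SNORD112, SNORD113 or SNORD114 families, or to a microRNA gene placed between DLK1 and DIO3. That gave 26 of the 29153 probe sets measured: 22 for small RNAs (16 microRNA genes, 2 SNORD113 copies and 4 SNORD114 copies) and 1 each for DLK1, MEG3, RTL1 and DIO3. MEG8 and SNORD112 had no probe set of their own. The region holds 100 such genes in RefSeq, so most of its 54 microRNA genes and its 31 SNORD114 copies were not measured. The set was selected on the array values with dexamethasone and with vehicle, because its small RNAs were higher with dexamethasone. Values that involve dexamethasone are therefore given as a description. Counts of calls and of unadjusted p under 0.05 stand beside those of all probe sets. No p-value of a member is given and nothing is read from these counts.

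All 17 arrays used were made from H295R cells, an established human adrenocortical carcinoma line that makes steroid hormones. GRα cells were a stable line in which the pcDNA4 vector, with no inducible switch, encoded GRα, the hormone-binding form of the glucocorticoid receptor. Control cells held the same vector without an insert. Both lines were deprived of serum for 24 h once they had grown to 70% confluence, and the treatment lasted 6 h. The groups were GRα cells with dexamethasone at 100 nM (3 arrays), RU486 at 100 nM (2 arrays) or ethanol vehicle (3 arrays), and control cells with the same 3 treatments (3 arrays each). Dexamethasone is a synthetic agonist of the receptor, and RU486 (mifepristone) is an antagonist or partial agonist. Each genotype is 1 stable line, so an effect of the receptor and a difference between the 2 lines cannot be told apart. All values below are the authors' normalized log2 signals, in which a difference of 1 is a doubling, and levels are compared only within a probe set.

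The DLK1 to DIO3 region is imprinted, meaning that each of its genes is read mainly from the chromosome of 1 parent. The protein-coding genes DLK1, RTL1 and DIO3 are read from the paternal copy. The noncoding RNAs, MEG3, MEG8, the SNORD113 and SNORD114 small nucleolar RNAs and a large group of microRNAs, are read from the maternal copy, where the small RNAs lie in introns or stretches of long transcripts that follow MEG3. SNORD113 and SNORD114 belong to the box C/D class, most members of which guide methylation of ribosomal RNA, but have no established target. In the adrenal cortex DLK1 is known from cells beneath the capsule that are regarded as progenitors.

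Mature sequences are shown for the microRNA genes that share a seed and for 4 others that fell between the lines under RU486, with the seed, bases 2 to 8 from the 5′ end that do most of the target pairing, in capitals. All 16 measured microRNA genes matched a RefSeq entry (GRCh38.p14, chromosome 14, plus strand), with 32 mature arms and 29 different seeds. MIR154 and MIR487A share the seed of their 3p arms:
hsa-miR-154-3p (chr14:101059805-101059826): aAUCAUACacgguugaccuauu
hsa-miR-487a-3p (chr14:101052494-101052515): aAUCAUACagggacauccaguu
MIR494, MIR323B and MIR410 share the seed of their 5p arms:
hsa-miR-494-5p (chr14:101029648-101029670): aGGUUGUCcguguugucuucucu
hsa-miR-323b-5p (chr14:101056233-101056255): aGGUUGUCcguggugaguucgca
hsa-miR-410-5p (chr14:101065925-101065945): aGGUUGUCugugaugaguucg
The seeds of MIR127, MIR323A, MIR382 and MIR377 are shared with no other measured arm:
hsa-miR-127-3p (chr14:100883035-100883056): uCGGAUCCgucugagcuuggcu
hsa-miR-323a-3p (chr14:101025782-101025802): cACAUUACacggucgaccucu
hsa-miR-382-5p (chr14:101054316-101054337): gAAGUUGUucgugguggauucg
hsa-miR-377-3p (chr14:101062094-101062115): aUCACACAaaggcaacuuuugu
The cDNA was primed with random hexamers, and a probe set for a microRNA gene can read its precursor or the long transcript around it. Whether the values below follow the mature RNAs shown was not tested. SNORD113 and SNORD114 copies are much alike in sequence, so the signal of 1 copy may hold RNA of another.

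MEG3 lies at the start of the maternal transcripts, and its RefSeq promoter window is shown for that reason, 250 bases before to 50 after the start (GRCh38.p14, chr14:100825858-100826157, plus strand), with a cAMP response element in capitals:
MEG3 promoter: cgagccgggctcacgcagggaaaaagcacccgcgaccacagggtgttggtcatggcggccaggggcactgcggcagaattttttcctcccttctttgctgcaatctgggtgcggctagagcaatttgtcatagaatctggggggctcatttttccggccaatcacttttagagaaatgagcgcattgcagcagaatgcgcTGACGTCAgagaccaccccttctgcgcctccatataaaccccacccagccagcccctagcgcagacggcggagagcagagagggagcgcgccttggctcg
The element TGACGTCA stands at bases 201 to 208 of the window and is present on either strand in 1.85% of the 35116 RefSeq promoters of this length. It contains the shorter TGACG on both strands. A glucocorticoid receptor element, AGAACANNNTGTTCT, and the shorter AGAACA, the part of it that lies left of the N, were searched on both strands. Neither occurred in the MEG3, RTL1 or DIO3 windows, and DLK1 had no window to search. AGAACA was in 14.8% of all promoters and the whole element in 0.00285%, so absence of the whole element is usual. The MEG3 window holds 19 CG pairs at 59% G and C, and 42.9% of the promoters hold at least as many pairs.

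NR3C1, the receptor gene, averaged 7.94 ± 0.04 in GRα cells with vehicle and 7.36 ± 0.07 in control cells with vehicle (SD, n = 3 each), a log2 difference of 0.59 (limma, adjusted p = 4.11e-06). With dexamethasone the receptor target ZBTB16 was 5.63-fold higher than with vehicle in GRα cells and 2.67-fold higher in control cells. Array medians over all probe sets lay between 6.28 and 6.35. Replicate B of GRα cells with vehicle stood apart, with an array weight of 0.21 against 0.73 to 2.10 for the others, and values without it are given below for the comparisons that use the GRα vehicle arrays. Over the 9 adrenocortical marker probe sets the median log2 difference between the lines was −0.13 under RU486. In GRα cells 1 was higher and 3 were lower, beside 10.5% and 12.0% of all probe sets. The lower ones were the steroid genes HSD3B2 (−1.66), SULT2A1 (−1.04) and STAR (−0.78). Of 6 chromaffin probe sets, CHGB (by 2.97 log2) and CHGA (0.45) were higher. None of the 6 endothelial and 5 leukocyte probe sets passed the test there, and 1 of the 7 fibroblast probe sets, COL1A1, was higher by 0.43. The part of these shifts in the region's values was not tested.

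In the comparison of the lines under RU486, the differences came from no array on which the RNAs were picked. Their errors and p-values used a spread shared over all arrays, those of the choice among them. In GRα cells 13 of the 26 RNAs were lower than in control cells and none was higher, against 12.0% of all 29153 probe sets called lower and 10.5% called higher (limma, Benjamini-Hochberg adjusted p under 0.05). The log2 difference was below 0 for 24 of the 26, with a median of −0.39, beside a median of 0.0010 over all probe sets. The arrays of the 2 lines did not overlap for 18 RNAs that were lower and 1 that was higher in GRα cells, beside 25.8% and 24.4% of all probe sets. As the cells were measured in bulk, fewer cells with an RNA and less RNA per cell cannot be told apart.

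Among the paternally read genes, DLK1, a membrane protein of the Notch ligand family that holds back cell differentiation, fell. Its log2 level was 10.26 and 10.34 in GRα cells with RU486, against 11.01, 10.94 and 11.06 in control cells with RU486. The lines did not overlap, and DLK1 was 1.63-fold lower in GRα cells (log2 −0.70 ± 0.07 SE, limma adjusted p = 1.36e-06). RTL1, a retrotransposon-derived protein needed for the placenta's blood vessels in mice, was 4.73 and 5.03 in GRα cells, against 5.40, 5.35 and 5.28 in control cells. Its difference was −0.47 ± 0.13 (limma adjusted p = 0.0145) and did not pass without replicate B of GRα cells (−0.32, adjusted p = 0.211, the highest over the 5 fits that left out 1 of these arrays). DIO3, the enzyme that inactivates thyroid hormone, was 5.33 and 5.48 in GRα cells, against 5.38, 5.51 and 5.45 in control cells. Its groups overlapped, and the difference of −0.04 had a 95% interval of −0.24 to 0.16.

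Among the maternally read RNAs, MEG3, a long noncoding RNA described as a growth suppressor, was 9.44 and 9.59 in GRα cells with RU486, against 9.71, 9.75 and 9.74 in control cells with RU486. The lines did not overlap, but the difference of −0.22 ± 0.08 did not pass the test (limma adjusted p = 0.0719). It passed under 3 of 8 other settings and in none of the 5 fits that left out 1 of these arrays.

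All 6 small nucleolar RNAs had non-overlapping arrays and 5 fell in GRα cells under RU486, with a median difference of −0.51 over the 6. Of all probe sets, 12.0% were called lower and 25.8% were lower with no overlap. SNORD114-6 was 4.83 and 4.84 in GRα cells, against 5.59, 5.55 and 5.46 in control cells, a difference of −0.70 ± 0.14 (limma adjusted p = 0.00167). SNORD114-26 was 6.65 and 6.25 in GRα cells, against 7.14, 7.07 and 7.04 in control cells, and differed by −0.63 ± 0.11 (limma adjusted p = 0.000469). The 2 GRα arrays lay further apart for SNORD114-26 than for SNORD114-6, and both stayed below every control array. SNORD114-3 was 7.81 and 7.68 in GRα cells, against 8.38, 8.13 and 8.25 in control cells (−0.51, limma adjusted p = 0.00145). SNORD113-3 was 8.16 and 8.05 in GRα cells, against 8.62, 8.58 and 8.61 in control cells (−0.50, limma adjusted p = 0.01). SNORD114-2 was 8.06 and 8.08 in GRα cells, against 8.54, 8.47 and 8.51 in control cells (−0.43, limma adjusted p = 0.00253). These 3 copies thus fell by similar amounts, from both families. SNORD113-4 was 8.60 and 8.51 in GRα cells, against 9.03, 8.94 and 8.74 in control cells, and its difference of −0.35 did not pass (limma adjusted p = 0.105).

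Of the 16 microRNA genes, 6 fell in GRα cells under RU486 and none rose, beside 12.0% and 10.5% of all probe sets. MIR323A was 4.43 and 4.77 in GRα cells, against 5.42, 5.45 and 5.34 in control cells, the largest difference of the set at −0.80 ± 0.14 (limma adjusted p = 0.000405). MIR154, which names a family of related microRNAs spread along the region, was 6.43 and 6.30 in GRα cells, against 7.22, 7.09 and 7.08 in control cells (−0.76 ± 0.13, limma adjusted p = 0.000266). Both GRα arrays lay below every control array for each of these 2 genes. MIR382 was 5.11 and 5.31 in GRα cells, against 5.60, 5.82 and 5.89 in control cells (−0.56 ± 0.16, limma adjusted p = 0.0194). It no longer passed without replicate B of GRα cells, or without replicate B or C of control cells, with adjusted p up to 0.171. MIR377 was 4.40 and 4.49 in GRα cells, against 4.96, 4.93 and 4.89 in control cells (−0.48, limma adjusted p = 0.00301). MIR323B was 6.52 and 6.39 in GRα cells, against 6.81, 6.76 and 7.01 in control cells (−0.40, limma adjusted p = 0.00188). MIR127 was 6.14 and 6.29 in GRα cells, against 6.67, 6.75 and 6.45 in control cells (−0.41, limma adjusted p = 0.00995). The lines did not overlap for any of these 3 genes. MIR127 lies opposite RTL1, on the other strand, and in mice its microRNA cuts the Rtl1 message.

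The other 10 microRNA genes did not pass the test, with differences from −0.38 for MIR299 to 0.19 for MIR494. MIR299 was 4.36 and 4.40 in GRα cells, against 4.90, 4.62 and 4.79 in control cells, and just missed the threshold (limma adjusted p = 0.0508). MIR485 (−0.28), MIR136 (−0.16), MIR134 (−0.15), MIR412 (−0.15), MIR495 (−0.12) and MIR376C (0.00) showed smaller differences. MIR134 is known from rat neurons, where it limits the growth of dendritic spines. MIR487A, which shares the 3p seed of MIR154 shown above, was 5.92 and 5.88 in GRα cells with RU486, against 6.31, 6.09 and 6.13 in control cells with RU486. Its difference of −0.28 was smaller than that of MIR154 and did not pass (adjusted p = 0.18). Of the 3 genes with the shared 5p seed, MIR323B fell, MIR410 differed by −0.13 and MIR494 by 0.19. No test was made between genes with a common seed.

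**Figure D1:**
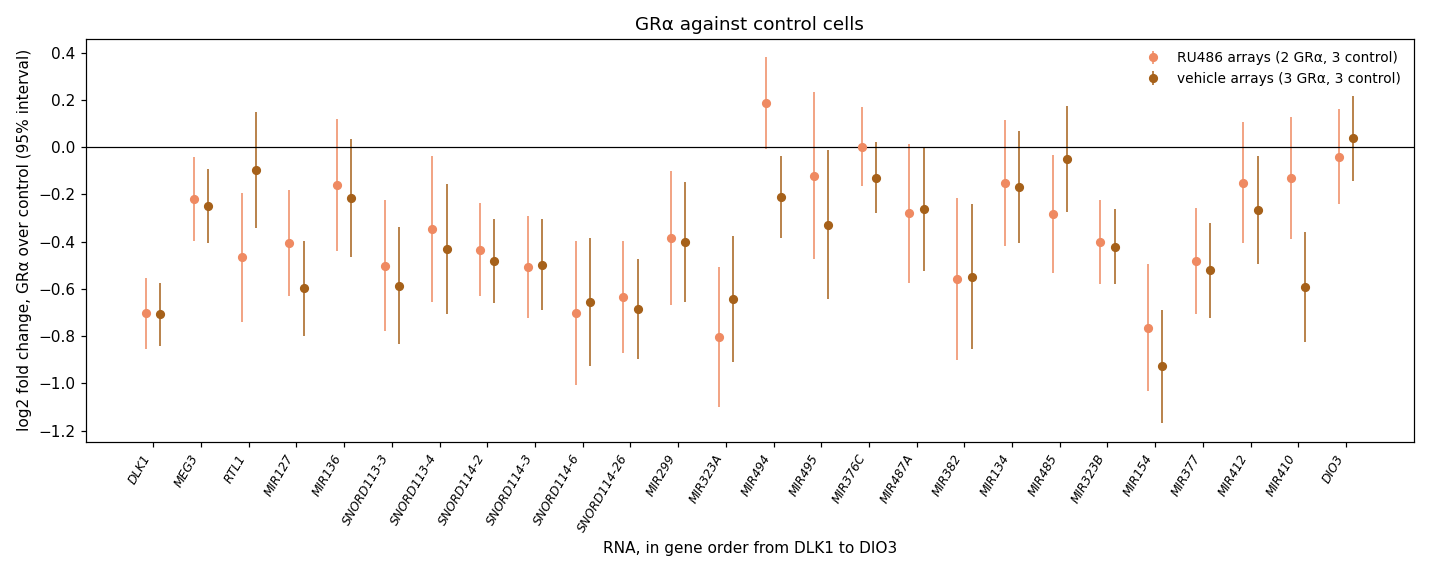
Log2 difference of GRα cells over control cells for each of the 26 RNAs in gene order from DLK1 to DIO3, under RU486 and with vehicle, with 95% intervals from the limma fit. Most points lie below 0 with both treatments, DLK1 lies near −0.70 in both and DIO3 near 0.

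With vehicle all RNAs but DIO3 (0.04) were lower in GRα cells than in control cells. These vehicle arrays also entered the dexamethasone comparison on which the RNAs were picked, so the values describe and do not test. In GRα cells 16 of the 26 were called lower and none higher, beside 14.3% of all probe sets called lower and 11.9% called higher, and the median difference was −0.43 against 0.0144 over all probe sets. The arrays of 18 RNAs were lower with no overlap, beside 18.6% of all. DLK1 was 10.30, 10.41 and 10.44 in GRα cells with vehicle, against 11.05, 11.13 and 11.09 in control cells with vehicle, a difference of −0.71. MIR154 was 6.27, 5.95 and 6.25 in GRα cells, against 7.19, 6.99 and 7.08 in control cells, 1.90-fold lower. SNORD114-26 (−0.68), SNORD114-6 (−0.66), MIR323A (−0.64) and MIR127 (−0.60) were next. MEG3 was 9.44, 9.38 and 9.67 in GRα cells, against 9.71, 9.75 and 9.79 in control cells, and its difference was −0.25. RTL1 was 4.87, 5.38 and 5.27 in GRα cells, against 5.32, 5.26 and 5.25 in control cells, so its groups overlapped here (−0.10). Without replicate B of GRα cells 16 RNAs were again called, MEG3 was at −0.19 and no longer called, MIR154 was at −0.83, MIR127 at −0.51 and RTL1 at −0.20.

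Under dexamethasone, where the arrays are those of the choice, 16 of the 26 RNAs were called lower in GRα cells and none higher, beside 13.6% and 12.8% of all probe sets. DLK1 was 10.41, 10.47 and 10.37 in GRα cells with dexamethasone, against 11.02, 11.09 and 11.14 in control cells with dexamethasone, a difference of −0.67. MIR154 (−0.80), SNORD114-6 (−0.72), MIR299 (−0.64), RTL1 (−0.55) and MIR495 (−0.51) had differences of like size. MIR487A, at 6.18, 6.47 and 6.48 in GRα cells against 6.28, 6.45 and 6.24 in control cells, overlapped between the lines and differed by 0.05.

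**Figure D2:**
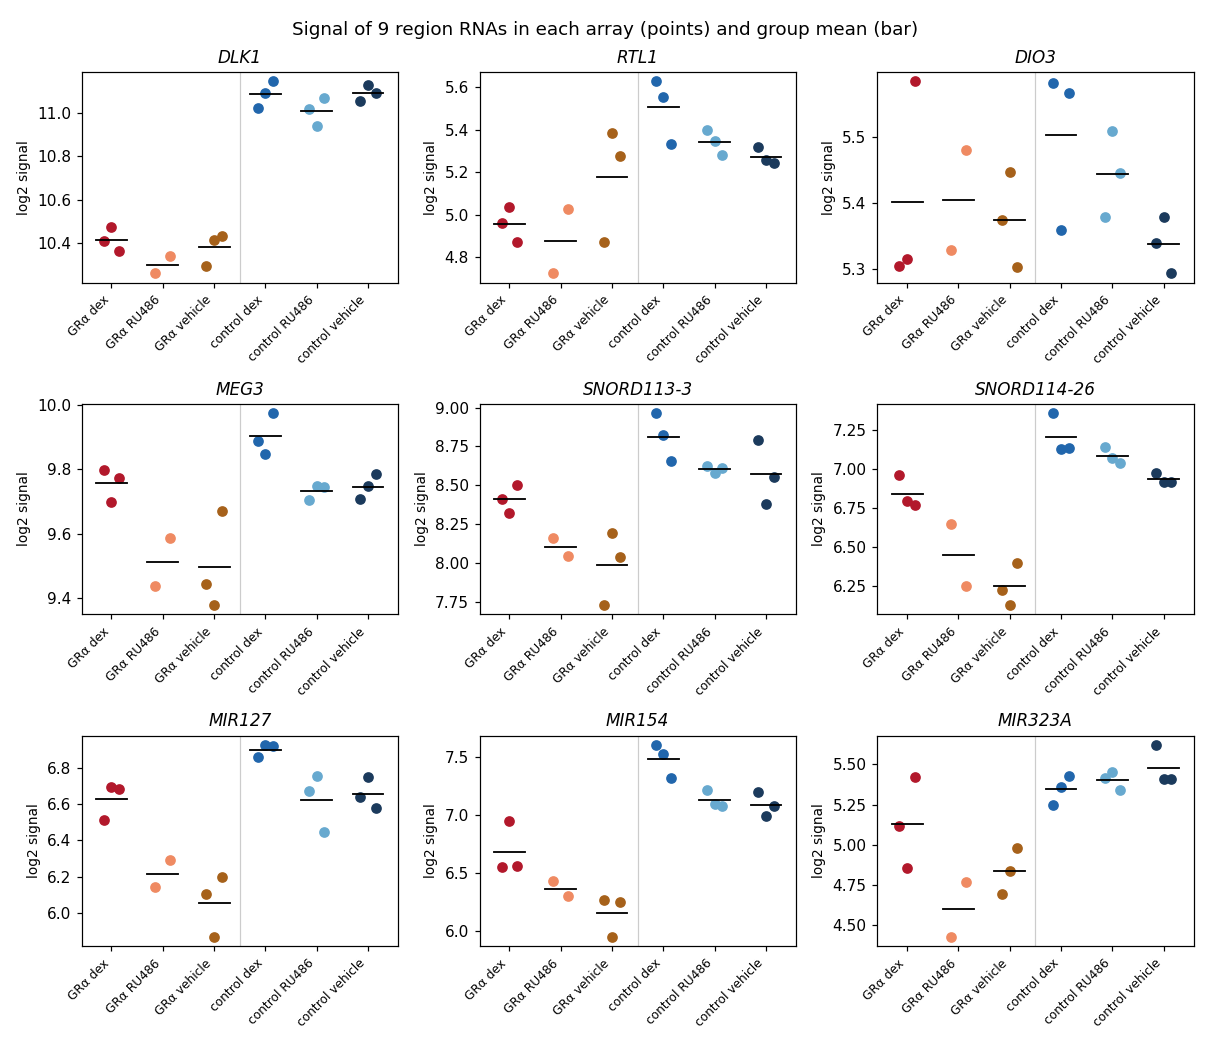
Log2 level (vertical axis, a scale of its own for each RNA) of DLK1, RTL1, DIO3, MEG3, SNORD113-3, SNORD114-26, MIR127, MIR154 and MIR323A in the 6 groups (dex is dexamethasone). Points are arrays and short bars are group means. The DLK1 points of GRα cells lie between 10.26 and 10.47 in every treatment and those of control cells between 10.94 and 11.14.

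With dexamethasone in GRα cells, the comparison that gave the choice, 8 small RNAs were called higher than with vehicle and none lower, beside 0.912% of all probe sets called higher and 0.545% called lower. Without overlap 12 were higher, beside 7.00% of all. These counts restate the choice and support nothing further. Of the 26 RNAs 22 were above 0, with a median log2 difference of 0.25 against −0.0078 over all probe sets. MIR487A was 6.18, 6.47 and 6.48 with dexamethasone, against 5.78, 5.56 and 5.92 with vehicle, 1.54-fold higher. SNORD114-26 was 6.96, 6.80 and 6.77 with dexamethasone, against 6.22, 6.13 and 6.40 with vehicle, 1.51-fold higher. MIR127 was 6.52, 6.69 and 6.68 with dexamethasone, against 6.10, 5.87 and 6.20 with vehicle, 1.49-fold higher. In these 3 genes every dexamethasone array lay above every vehicle array. The others called were MIR154 (0.53), MIR410 (0.47), SNORD114-2 (0.46), SNORD114-3 (0.45) and MIR377 (0.40), while MIR382 (0.43) and SNORD113-3 (0.42) were not.

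The number called depended on single arrays. It was 3 without replicate B of the vehicle arrays, 3 without replicate B and 4 without replicate C of the dexamethasone arrays. Without vehicle replicate B the 3 called were SNORD114-26 at 0.53, MIR127 at 0.48 and SNORD114-2 at 0.37, against 0.59, 0.57 and 0.46 with it. MEG3 was 9.80, 9.70 and 9.77 with dexamethasone, against 9.44, 9.38 and 9.67 with vehicle, which is 0.26 ± 0.07 higher with no overlap and was not called. The paternally read genes were at 0.04 (DLK1), 0.03 (DIO3) and −0.22 (RTL1), and 3 microRNA genes were also below 0, MIR299 (−0.15), MIR485 (−0.06) and MIR412 (−0.05). No test was made between the paternally and the maternally read RNAs.

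In control cells, which have only their own receptor, none of the 26 RNAs was called with dexamethasone, beside 0.0926% of all probe sets. At an unadjusted p under 0.05 there were 10 of the 26 and 1261 of all 29153. These arrays are also those of the choice, so the counts describe and do not test. Again 22 were above 0, with a median of 0.23 against −0.0053. SNORD114-6 was 6.02, 5.82 and 5.63 with dexamethasone, against 5.72, 5.05 and 5.34 with vehicle, and the groups overlapped (0.45). MIR154 was 7.60, 7.52 and 7.32 with dexamethasone, against 7.19, 6.99 and 7.08 with vehicle, with no overlap (0.39). SNORD114-3 was 8.47, 8.34 and 8.40 with dexamethasone, against 8.10, 8.03 and 8.06 with vehicle, with no overlap (0.34). MEG3 was 0.16 higher with no overlap. RTL1 was 5.63, 5.55 and 5.33 with dexamethasone, against 5.32, 5.26 and 5.25 with vehicle, also with no overlap (0.23). DIO3 was 0.17 higher with overlap, and DLK1 differed by less than 0.01. In all, 9 RNAs were higher with no overlap, beside 5.31% of all probe sets.

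The difference between the lines in the dexamethasone effect was called for none of the 26 (limma), beside 0.0412% of all probe sets. At an unadjusted p under 0.05 there were 5 of the 26 and 2133 of all. These counts, too, come from arrays of the choice and do not test. MIR410 had the largest difference at 0.52. It was 4.02, 4.13 and 3.95 with dexamethasone, against 3.40, 3.68 and 3.62 with vehicle, in GRα cells. In control cells it was 4.10, 4.21 and 4.01 with dexamethasone, against 4.26, 4.08 and 4.13 with vehicle. RTL1 (−0.45) and MIR323A (0.43) followed. Without vehicle replicate B of GRα cells these differences were 0.58, −0.35 and 0.43. These values do not show that the lines responded alike.

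**Figure D3:**
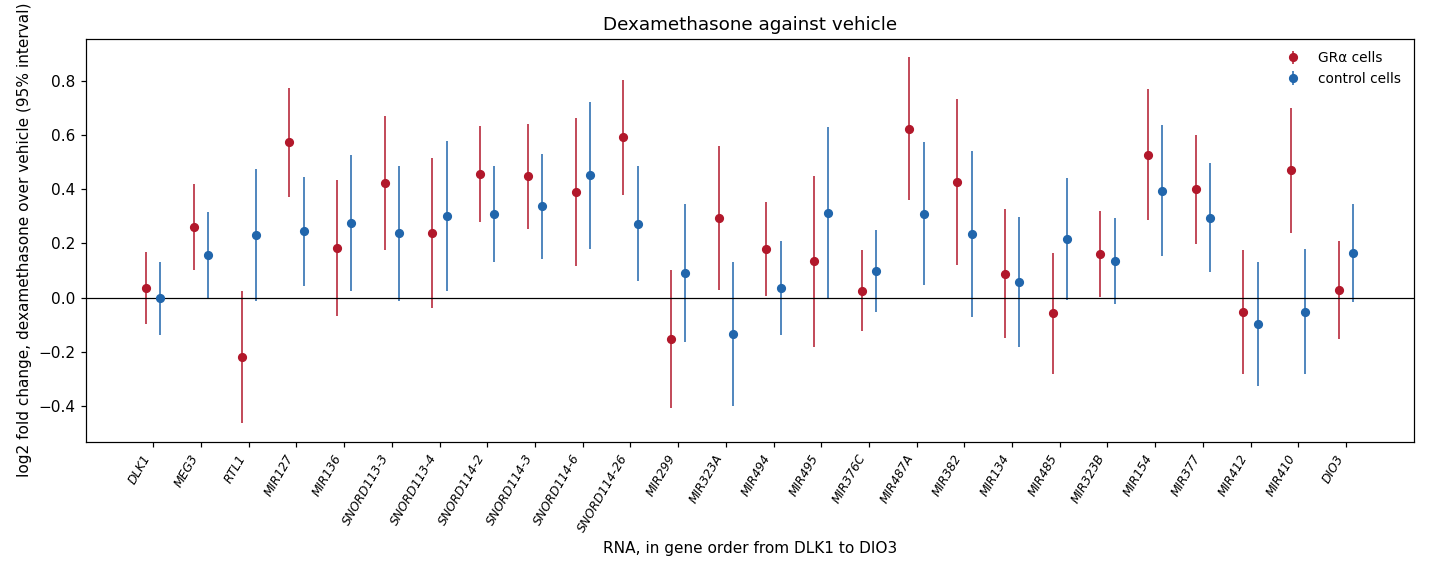
Log2 difference of dexamethasone over vehicle for the 26 RNAs in gene order, in GRα cells and in control cells, with 95% intervals from the limma fit. The SNORD113 and SNORD114 copies lie above 0 in both lines, DLK1 lies at 0 in both, and MIR410 lies above 0 in GRα cells and near 0 in control cells.

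The mean of the 22 small RNAs was taken on each array as a description. These RNAs were picked for being higher with dexamethasone than with vehicle, so that order restates the choice. The mean was 5.82, 5.91 and 5.89 in GRα cells with dexamethasone, 5.69 and 5.67 with RU486, and 5.55, 5.56 and 5.64 with vehicle. In control cells it was 6.23, 6.25 and 6.17 with dexamethasone, 6.07, 6.01 and 6.05 with RU486, and 6.12, 5.96 and 5.98 with vehicle. Every control array lay above every GRα array, and within control cells RU486 and vehicle overlapped.

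RU486 was then set against vehicle, which shares its vehicle arrays with the choice. None of the 26 RNAs was called in GRα cells (limma), beside 0% of all probe sets. At an unadjusted p under 0.05 there were 3 of the 26 and 2686 of all probe sets. The largest differences, none of them called, were MIR495 (0.32), RTL1 (−0.30) and MIR494 (0.29). Without vehicle replicate B of GRα cells the largest were MIR495 (0.44), MIR410 (0.30) and MIR494 (0.26), with RTL1 at −0.20 and again none called. MIR495 was 3.75 and 3.76 with RU486, against 3.15, 3.69 and 3.48 with vehicle. In control cells none was called either, beside 0% of all probe sets, with 1 of the 26 and 1100 of all at an unadjusted p under 0.05. The largest there were MIR299 (−0.27), MIR410 (−0.22) and MIR377 (0.19). DLK1 differed by −0.08 in each line.

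Dexamethasone and RU486 were given at the same dose and time. The dexamethasone arrays are those of the choice, so the counts that follow describe and do not test. In GRα cells none of the 26 was called between them (limma), beside 0.497% of all probe sets, and 9 of the 26 and 2357 of all had an unadjusted p under 0.05. The median was 0.15, and 14 RNAs were higher with dexamethasone with no overlap, beside 12.0% of all. MIR323A was 5.12, 4.86 and 5.42 with dexamethasone, against 4.43 and 4.77 with RU486, the widest gap of the set (0.53). In control cells none was called, beside 0.189% of all, and 6 of the 26 and 1486 of all had an unadjusted p under 0.05. The median was 0.15, with 25 of 26 above 0 and 10 higher with no overlap, beside 6.66% of all. MIR299 was 5.16, 5.24 and 4.99 with dexamethasone, against 4.90, 4.62 and 4.79 with RU486 (0.36).

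Genes around the region and of related classes were counted for comparison, from lists chosen with earlier results known. Of all probe sets, 10.5% were called higher and 12.0% lower in GRα cells under RU486. Under RU486, 1 of the 16 probe sets of genes before DLK1 was higher in GRα cells and none lower. This was 1 probe set of CCDC85C (0.63), and another of the same gene was at −0.03. Of the 15 after DIO3, 2 were higher (PPP2R5C, 0.58, and TECPR2, 0.54). Another 3 were lower, among them the small nucleolar RNA SNORA28 (−0.48). The medians were 0.0039 and −0.0713, beside −0.39 within the region. Of 18 probe sets for other imprinted genes, 3 were higher and 3 lower, among them PLAGL1 (−0.48), a zinc finger factor, and UBE3A (0.40), a ubiquitin ligase. Of 40 probe sets for SNORD115 and SNORD116 copies, the imprinted small nucleolar RNAs of chromosome 15q11, 4 were higher and 1 lower. Box C/D small nucleolar RNAs elsewhere in the genome were lower in 17 of 69 and higher in 3, with a median of −0.19. MicroRNA genes elsewhere were lower in 5 of 155 and higher in 3, with a median of −0.0343.

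With dexamethasone in GRα cells none of the 31 neighbouring probe sets was called. PLAGL1 (0.30) was the single call among 18 other imprinted probe sets, SNORD115-44 (0.44) among 40, SNORD81 (0.45) among 69 and MIR95 (0.91) and MIR296 (−0.41) among 155. These counts stand beside 8 of 26 in the region, a number that the choice itself fixed.

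**Figure D4:**
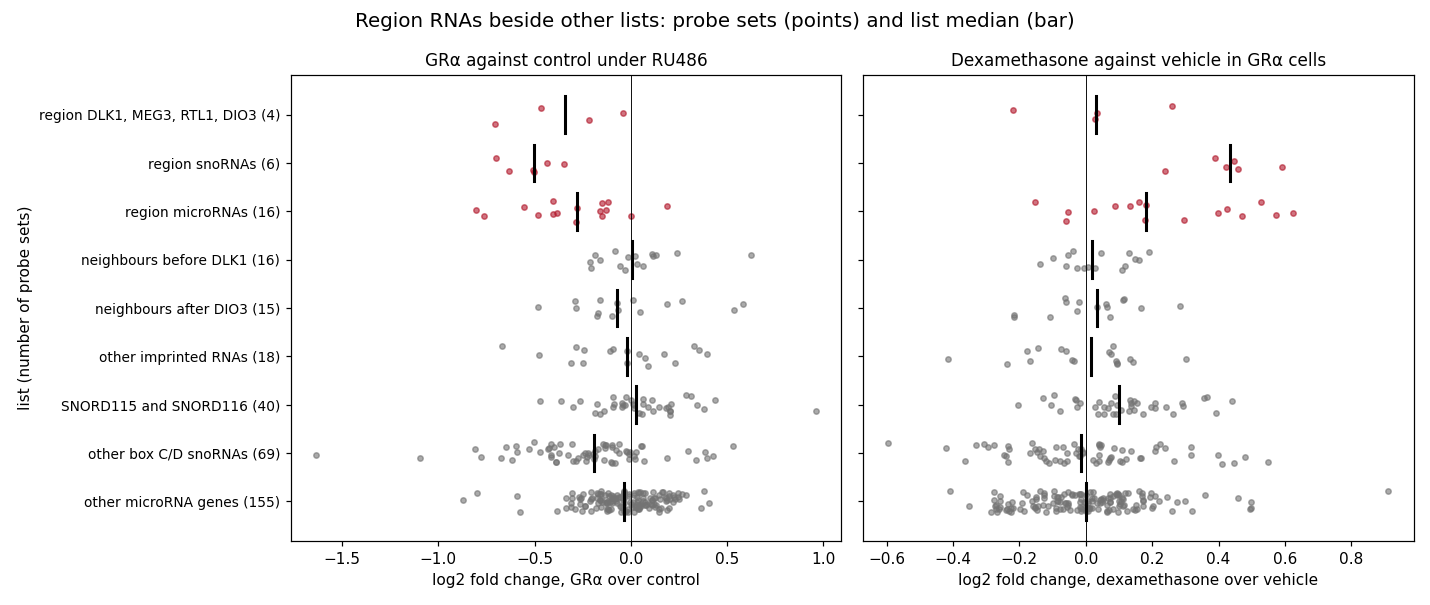
Log2 differences of probe sets of the region and of comparison lists, for GRα over control cells under RU486 and for dexamethasone over vehicle in GRα cells. Each point is a probe set and the bar is the median of the list. The medians of the region's small nucleolar RNAs and microRNA genes are −0.51 and −0.28 for the lines and 0.44 and 0.18 for dexamethasone, and those of the neighbouring genes lie between −0.0713 and 0.0340.

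Genes of pathways related to the region's RNAs were counted between the lines under RU486. Of all probe sets, 10.5% were called higher and 12.0% lower in GRα cells there. In the Notch pathway, to which DLK1 is related, 4 of 16 probe sets rose in GRα cells and none fell, led by the ligand JAG1 (0.76), the receptor NOTCH2 (0.48) and the transcription factor HEY2 (0.43). In thyroid hormone handling, the field of DIO3, the activating enzyme DIO2 (−1.54) and the receptor THRB (−0.62) fell and the receptor THRA rose (0.26), of 6. Both measured proteins of the box C/D particle rose, NOP58 by 0.67 and the methyltransferase FBL by 0.32. Of 9 microRNA processing genes 3 fell, AGO3 (−0.27), AGO1 (−0.25) and DICER1 (−0.22). Of 19 probe sets for factors that keep or silence imprints, 3 rose and 3 fell, including AFF3 (2.92), which binds imprinted control regions in mouse cells, TRIM28 (−0.76), a corepressor that protects imprints, and the demethylation enzyme TET3 (0.45). With dexamethasone in GRα cells none of these 5 lists had a call.

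The 26 RNAs varied together unequally within groups. The group means were removed, and each RNA was correlated over the 17 arrays with the mean of the small RNAs. A small RNA was left out of the mean it was set against. The correlation was 0.76 for MIR487A, 0.71 for SNORD114-6 and 0.66 for MIR376C. Among the small RNAs it was lowest for MIR412 (−0.23), MIR134 (−0.21) and MIR323B (−0.19). It was 0.32 for RTL1, −0.03 for DLK1, −0.06 for MEG3 and −0.22 for DIO3. Outside the region, probe sets were set against the mean of all the small RNAs with the group means kept. The most alike over the 17 arrays were IL1RAP (r = 0.98), LIFR (0.971), PDE9A (0.97), CNST (0.968) and STXBP5L (0.965). UTP20, PLAGL1, CA5B, DUSP6 and GRAMD1B followed, down to 0.956. The correlations outside the region describe 17 arrays that fall into 2 lines, and the gap between the lines enters each of them. That gap does not enter the correlations with the group means removed.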

How the data were processed

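Total RNA of 17 samples was measured on whole-transcript arrays. The authors deposited 1 table of log2 values for 29153 probe sets, made with RMA per the submitters' processing notes, which name limma as well. Their versions and a genome build are not stated in those notes. RMA gives every array the same distribution, which would hide a shift of most RNAs. 1 further sample column is empty (GRα RU486 replicate A, failed quality control per the labels) and was not used.

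All probe sets were fitted with limma 3.58.1 (R 4.3.3), with 6 group means (4.74 prior and 11 residual degrees of freedom). Two-sided tests were used, with Benjamini-Hochberg adjustment over all 29153 probe sets and calls at an adjusted p under 0.05. Errors are SE from the fit unless marked SD. The labels call the replicates biological but name no separate cultures, so the p-values rest on a spread between samples that may in part be technical. Groups of 2 or 3 arrays limit the precision. The fit was tested on simulated data.

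The RNAs and lists were chosen with earlier results of these data known. Named were DLK1, MEG3, RTL1 and DIO3, per comparison up to 6 called small RNAs with the largest non-overlapping differences (otherwise the 3 largest), the 8 largest dexamethasone differences in GRα cells, and up to 3 calls per list. MIR376C, MIR495 and further small RNAs named for their place in a group were added after their values were seen. Highest and lowest levels across probe sets were not used. Names and gene order came from RefSeq (GRCh38.p14). Alternatives were another normalization, filter, gene unit, variance model, array weights, fewer groups, the replicate block and leaving out each array.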

Additional observations from a re-analysis of the deposited data

Results flagged for a closer look

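MIR494 was flagged because its arrays of the 2 lines separate in opposite directions with 2 treatments. Under RU486 it was 6.71 and 6.71 in GRα cells, against 6.47, 6.49 and 6.61 in control cells, a log2 difference of 0.19. With vehicle it was 6.41, 6.36 and 6.49 in GRα cells, against 6.61, 6.62 and 6.68 in control cells, a difference of −0.21. Neither difference passed the test by itself. The change between treatments, fitted after these values were seen, was 0.40 ± 0.12 SE (limma, adjusted p = 0.996 over all 29153 probe sets). No probe set was called, and 3 of the 26 and 1269 of all had an unadjusted p under 0.05. The vehicle arrays also entered the choice, and MIR494 was flagged on this separation. The value therefore describes and does not test.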

How the results depend on the processing

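The 10 counts of called RNAs were recomputed under 8 other settings and without each array. The count for dexamethasone against vehicle in GRα cells, 8 as reported, was 3 with array weights and 0 when only the groups compared were fitted, and ran from 3 to 9 when 1 array was left out. The count for dexamethasone against RU486 in GRα cells, 0 as reported, ran from 0 to 1. The other 8 counts stayed within 1.5 times of their values. For the lines under RU486 the count ran from 10 to 15 without 1 array, against 13.

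The replicate letters did not pair the arrays: over 40 pairs of arrays with the same letter, deviations from the group means correlated between −0.21 and 0.28, and 3 pairs exceeded 0.1. With the replicate block the counts were 7 for dexamethasone in GRα cells and 14 for the lines under RU486, and MEG3 passed between the lines under RU486.

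Over the named RNAs no difference that was called changed its sign, in 44 recomputed values a call was lost and in 9 one was gained. MEG3 between the lines with vehicle was no longer called after another quantile normalization, with only the groups compared, or without replicate A or B of GRα cells or replicate C of control cells. Detection calls were not used here, so signal over background is unknown for these RNAs. The filter dropped the 25% of probe sets with the lowest mean signal. MIR136, MIR299, MIR376C, MIR377, MIR410 and MIR495 were among those dropped.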
